A study of Mus musculus with 2 samples.

Results

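The Slc25a genes encode the solute carrier family 25, and they were taken as every protein-coding gene of the mouse annotation whose symbol is Slc25a followed by a number. This rule found 47 of 21853 protein-coding genes. The haem and iron carriers Slc25a37, Slc25a28 and Slc25a38 were set against the other 44. The rule used gene names and no measured value.

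Accessible chromatin of megakaryocyte-erythroid progenitors (MEP), marrow cells from which red cells and platelets descend, was measured by ATAC-seq, which uses a transposase to tag open DNA. Primary cells came from male mice of strain C57BL/6J, 5 to 6 weeks old, with no allele or treatment named, and 50000 cells went into each of 2 libraries. These are replicates 1 and 2 of 1 group, with separate biosample entries but the same donor entry, so separate animals are not stated and the spread between libraries may be technical. Replicate 1 is labelled with 2 sequencers and replicate 2 with none.

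Carriers of this family sit mostly in the inner mitochondrial membrane, which small charged molecules do not cross unaided, and each moves a metabolite, nucleotide, cofactor or ion. Red cell precursors make haem in mitochondria, from glycine and succinyl-CoA to a porphyrin ring into which iron is inserted. Slc25a37 (mitoferrin-1) brings iron into the mitochondria of red cell precursors, and Slc25a28 (mitoferrin-2) does so in most other tissues. Slc25a38 imports glycine for the first step of haem synthesis, as shown in yeast and zebrafish, and its human gene is mutated in a form of sideroblastic anaemia.

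Promoters of Slc25a28 and Slc25a38 and the leading distal regions of the haem and iron carriers are shown first, because the counts of regions and of transcription factor words below refer to them. All sequence is from mm10 (GRCm38). Promoters are the 250 bases before the start site, on the strand of the gene. They lie at chr19:43674882-43675131 for Slc25a28 (minus strand) and chr9:120110124-120110373 for Slc25a38 (plus strand). Capitals mark words of the ETS (CCGGAAG), SP (GGGCGG), CREB (TGACGTCA), YY1 (AAGATGGC), KLF (CCNCNCCC), NRF1, GATA and CTCF factors on either strand. A GATA word has A or T before and A or G after those 4 letters, and the CTCF word has 12 letters, 2 of them free.
Slc25a28 promoter: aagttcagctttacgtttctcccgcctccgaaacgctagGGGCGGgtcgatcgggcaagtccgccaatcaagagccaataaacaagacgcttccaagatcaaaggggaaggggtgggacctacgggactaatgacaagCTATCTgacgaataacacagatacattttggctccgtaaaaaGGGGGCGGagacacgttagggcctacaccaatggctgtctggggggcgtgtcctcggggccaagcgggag
Slc25a38 promoter: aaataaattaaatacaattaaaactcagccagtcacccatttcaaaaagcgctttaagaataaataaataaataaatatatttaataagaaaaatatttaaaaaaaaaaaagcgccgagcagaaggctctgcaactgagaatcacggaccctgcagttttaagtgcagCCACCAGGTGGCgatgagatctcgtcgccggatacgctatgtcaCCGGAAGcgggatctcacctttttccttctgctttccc

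The Slc25a28 promoter held SP words beginning 211 and 68 bases before the start site, a GATA word (CTATCT) at 112 bases, and a KLF word (GGGGGCGG) at 70 bases that overlaps the second SP word. The Slc25a38 promoter held an ETS word 38 bases before the start site and a CTCF word, CCACCAGGTGGC, at 82 bases. The accessible region reached over all 250 printed bases of Slc25a28, and over the 123 bases of Slc25a38 next to its start site.

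Distal windows are the summit of a region and 100 bases to either side of it on the plus strand, named by the distance from the most upstream start site of the gene, negative when upstream. The window at -19.8 kb of Slc25a37 (chr14:69304821-69305021), at +43.8 kb of Slc25a28 (chr19:43630964-43631164) and at +47.9 kb of Slc25a38 (chr9:120158140-120158340) are from the region of highest pooled fold of each gene, the fold called on both libraries together. For Slc25a38 the +30.5 kb region was higher in replicate 2 alone. The window at +17.4 kb of Slc25a37 (chr14:69267574-69267774) is from the strongest region inside that gene. The one at +13.9 kb of Slc25a28 (chr19:43660843-43661043) is from its strongest region with a GATA word. Capitals mark GATA, KLF and CTCF words on either strand.
Slc25a37 -19.8 kb: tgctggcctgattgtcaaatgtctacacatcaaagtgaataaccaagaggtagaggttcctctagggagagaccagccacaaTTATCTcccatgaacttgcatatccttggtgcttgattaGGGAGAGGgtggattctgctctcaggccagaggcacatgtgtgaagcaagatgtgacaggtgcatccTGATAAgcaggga
Slc25a37 +17.4 kb: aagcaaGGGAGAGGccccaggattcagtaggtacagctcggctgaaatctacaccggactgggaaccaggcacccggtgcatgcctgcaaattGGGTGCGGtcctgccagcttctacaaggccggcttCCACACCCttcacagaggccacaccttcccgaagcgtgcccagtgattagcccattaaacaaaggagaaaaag
Slc25a28 +43.8 kb: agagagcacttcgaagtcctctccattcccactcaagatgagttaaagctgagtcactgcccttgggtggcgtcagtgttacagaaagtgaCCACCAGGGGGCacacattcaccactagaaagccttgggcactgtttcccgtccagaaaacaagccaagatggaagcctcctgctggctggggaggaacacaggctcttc
Slc25a28 +13.9 kb: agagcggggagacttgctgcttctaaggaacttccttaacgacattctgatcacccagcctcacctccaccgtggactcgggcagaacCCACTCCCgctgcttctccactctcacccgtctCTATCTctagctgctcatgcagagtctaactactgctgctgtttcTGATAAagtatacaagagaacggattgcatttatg
Slc25a38 +47.9 kb: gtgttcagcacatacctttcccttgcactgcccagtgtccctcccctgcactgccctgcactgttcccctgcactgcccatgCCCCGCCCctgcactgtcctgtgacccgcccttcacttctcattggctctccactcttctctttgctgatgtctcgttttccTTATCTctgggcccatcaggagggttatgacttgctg

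The -19.8 kb window of Slc25a37 held 2 GATA words and 1 KLF word, and the +17.4 kb window held 3 KLF words and no GATA word. In Slc25a28 the +43.8 kb window held 1 CTCF word and neither of the others, whereas the +13.9 kb window held 2 GATA words and 1 KLF word. The +47.9 kb window of Slc25a38 held 1 GATA word and 1 KLF word. A word found in this way is a match of letters and does not show that a factor was bound.

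The deposited data are lists of peaks, and overlapping or touching peaks were merged into regions. The IDR-thresholded lists, which keep peaks whose rank repeats between random splits of 1 library, held 26353 regions over 16.7 Mb in replicate 1 and 28142 regions over 17.9 Mb in replicate 2. The conservative list, which keeps peaks whose rank repeats between the 2 libraries, held 46200 regions over 28.3 Mb. Read counts were not used here, so depth is unknown. The labelled cell type was checked against marker genes. Promoters of 9 of 11 erythroid-megakaryocyte progenitor markers were accessible in both libraries, all except Gfi1b and Itga2b, whose promoters were in the longer, pseudoreplicated lists of both libraries. None of 7 granulocyte-macrophage, 3 B cell, 3 T cell and 3 hepatocyte marker promoters was in the lists of both libraries, for either kind of list. Presence in the list of 1 library alone was not counted for these markers.

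Most Slc25a genes had an accessible promoter in MEP. A region of the IDR-thresholded list overlapped the start site ± 1 kb in both libraries for 37 of 47 Slc25a genes (78.7%), against 45.7% of all 21853 protein-coding genes. The haem and iron carriers had 3 of 3 and the other Slc25a genes 34 of 44 (77.3%). No Slc25a promoter was accessible in 1 library only, so 37 were also accessible in either library, where the share of all genes was 49.9%. In the pseudoreplicated lists of both libraries the count was 38 of 47 (80.9%), against 56.5% of all genes, and in the conservative list it was also 38, against 54.5%. These counts describe named genes in 1 cell type, and no test was made over genes, which are not replicates.

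The 3 haem and iron carriers differed in promoter fold, with Slc25a37 above and Slc25a38 below the median of all accessible promoters, and kept the same order in both libraries. The fold is the authors' enrichment of a peak over its local background, and the promoter fold of a gene is that of its highest promoter region. Slc25a37 had 10.1 in replicate 1 and 10.5 in replicate 2 (mean 10.3 ± 0.297, SD, n = 2). Slc25a28 had 8.35 in replicate 1 and 7.67 in replicate 2 (8.01 ± 0.482). Slc25a38 had 6.57 in replicate 1 and 6.07 in replicate 2 (6.32 ± 0.352). The values of the 3 genes did not overlap between libraries, so Slc25a37, Slc25a28 and Slc25a38 stood in that order in each. Percentiles here and below are among all promoters in the IDR-thresholded list of that library, whether or not called in the other. Slc25a37 stood at percentile 76.1 and 74.8 in replicates 1 and 2, Slc25a28 at 51.4 and 34.8, and Slc25a38 at 24.0 and 12.8.

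Slc25a37 (ENSMUSG00000034248.7) had 2 promoter regions in the conservative list, with a pooled fold of 10.6 and 3.76, of which the stronger was in the lists of both libraries. The pooled fold is that of a region of the conservative list, called on both libraries together. Slc25a28 (ENSMUSG00000040414.8) had a single promoter region at chr19:43674766-43676048, with the summit 154 bp before the start site. Slc25a38 (ENSMUSG00000032519.11) had its main region at chr9:120110251-120111057, with the summit 434 bp past the start site. A further region at chr9:120115432-120116071, near a second annotated start site, had a fold of 5.55 in replicate 1 and 5.87 in replicate 2. Conservative promoter regions of the 3 genes covered a median of 1285 bp, against 1019 bp for the other Slc25a genes and 1012 bp for all genes.

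**Figure D1:**
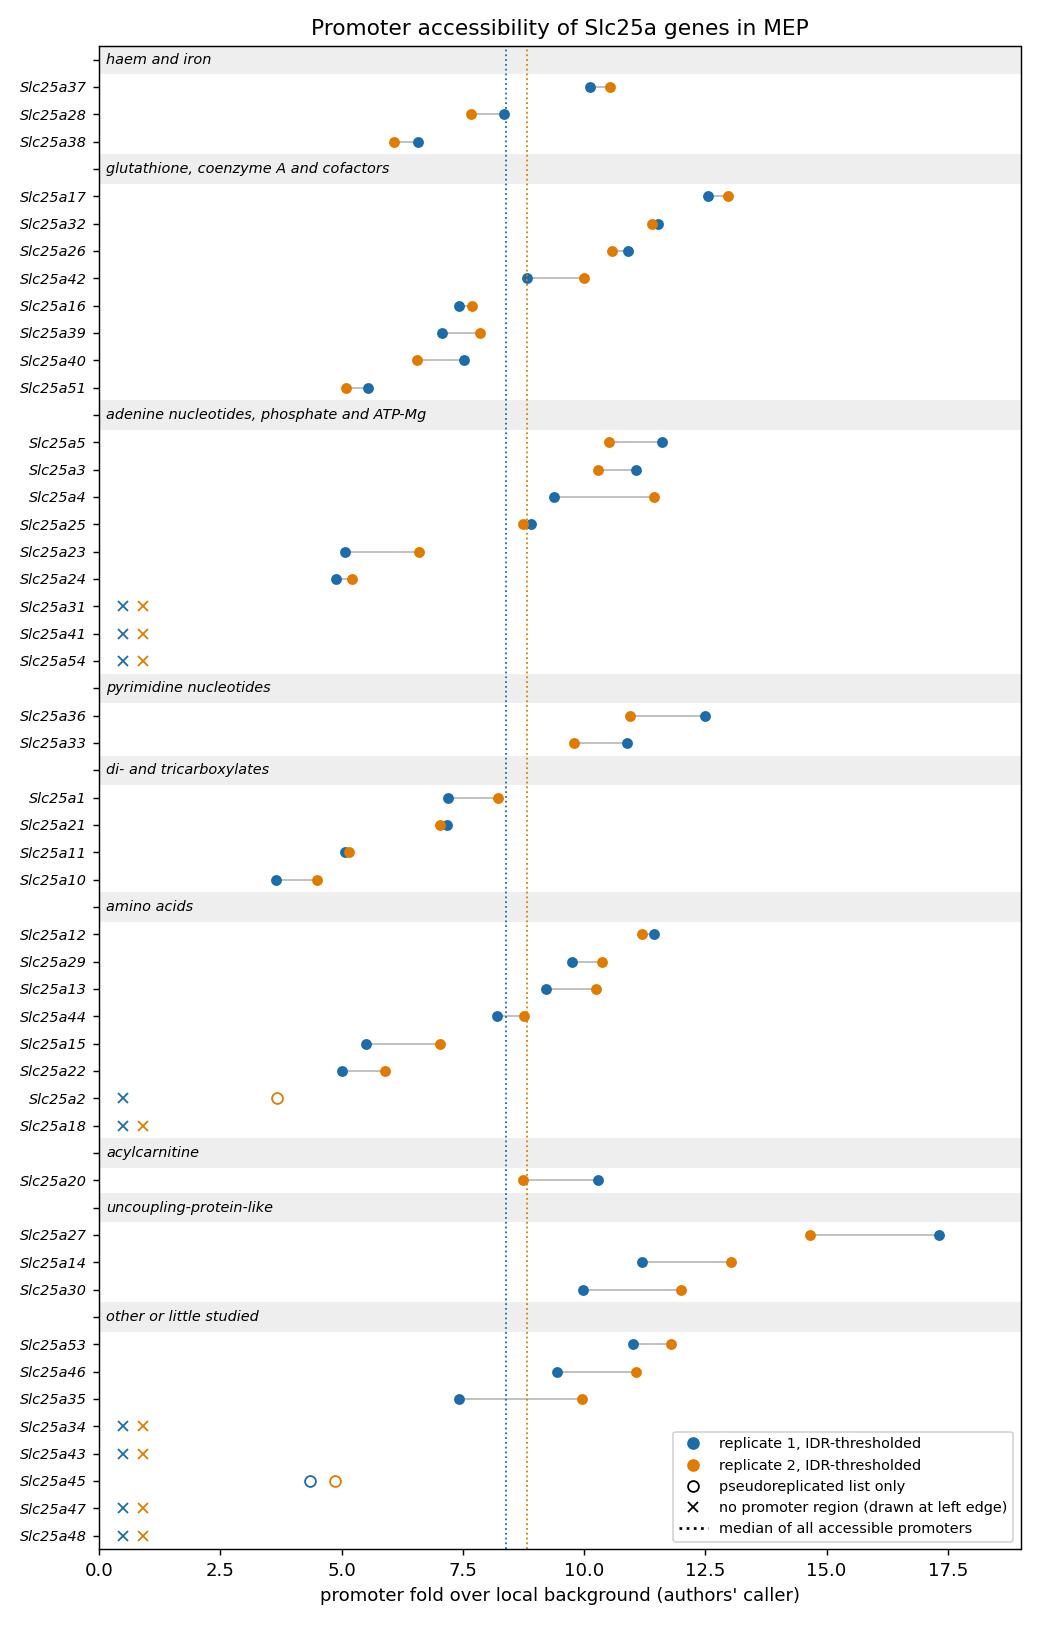
Promoter fold over local background (x axis, authors' fold, no unit) of Slc25a genes by role (1 member is not drawn), with a point for each library and a line joining the 2. Open circles are regions of the pseudoreplicated lists only, crosses stand for no promoter region and have no value, and dotted lines are the medians of all accessible promoters (8.39 in replicate 1 and 8.83 in replicate 2). Slc25a37 lies right of both dotted lines and Slc25a38 left of both.

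The accessible promoters of the family were spread over much of the range of fold seen over all genes. The median fold of the 3 haem and iron carriers was 8.35 in replicate 1 and 7.67 in replicate 2, against 9.30 and 9.98 for the 34 other Slc25a genes and 8.39 and 8.83 for all accessible promoters. Of the 34 others, 12 stood above Slc25a37 in each library. For Slc25a28 the number above was 20 in replicate 1 and 25 in replicate 2, and for Slc25a38 it was 27 and 29. All accessible Slc25a promoters ran between 3.64 and 17.3 in replicate 1 and between 4.49 and 14.6 in replicate 2.

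Among carriers of cofactors, the second group in the plot of folds by role, 9 of 9 had an accessible promoter. Slc25a17, which carries coenzyme A, FAD and NAD in peroxisomes, had 12.6 in replicate 1 and 13.0 in replicate 2. Slc25a32, a carrier of folate and FAD, had 11.5 and 11.4. These 2 were among the 8 Slc25a promoters of highest mean fold. Slc25a26, which imports S-adenosylmethionine, had 10.9 and 10.6. Its promoter stood above the median of all accessible promoters in each library. Slc25a42 (coenzyme A) had 8.82 in replicate 1 and 10.01 in replicate 2, and Slc25a16, linked to coenzyme A, had 7.41 and 7.70. Slc25a39 and its paralog Slc25a40 act in the import of glutathione, an antioxidant that mitochondria do not make. Slc25a39 had 7.08 in replicate 1 and 7.86 in replicate 2. Slc25a40 had 7.52 and 6.56. Slc25a51, the NAD carrier, had 5.55 and 5.09, the lowest of the cofactor carriers in each library. The annotation used here holds no Slc25a52, so that gene is not analysed here.

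The carriers of adenine nucleotides and phosphate were split, with 6 of 9 promoters accessible. Slc25a5 and Slc25a4 exchange ADP for ATP, and Slc25a3 imports the phosphate for ATP synthesis. Slc25a5 had 11.6 in replicate 1 and 10.5 in replicate 2. Slc25a3 had 11.1 and 10.3, and Slc25a4 had 9.39 and 11.4. The ATP-Mg/phosphate carriers, which set the size of the adenine nucleotide pool, were lower. Slc25a25 had 8.90 in replicate 1 and 8.75 in replicate 2, Slc25a23 had 5.08 and 6.60, and Slc25a24 had 4.88 and 5.23. The germ cell ADP/ATP carrier Slc25a31, the ATP-Mg/phosphate carrier Slc25a41 and Slc25a54 had no promoter region in the lists of either library. Both pyrimidine nucleotide carriers were accessible, Slc25a36 with 12.49 in replicate 1 and 10.9 in replicate 2 and Slc25a33 with 10.9 and 9.79.

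The carriers of di- and tricarboxylates, which link the citric acid cycle to the cytosol, were all accessible (4 of 4) and all stood below the median of all accessible promoters in each library. The citrate carrier Slc25a1 had 7.19 in replicate 1 and 8.23 in replicate 2. Slc25a21, the oxodicarboxylate carrier, had 7.18 and 7.04, and Slc25a11, the oxoglutarate carrier, had 5.08 and 5.16. The dicarboxylate carrier Slc25a10 had 3.64 and 4.49, the lowest accessible promoter of the family in both libraries. It stood at percentile 0.158 and 1.37 of all promoters in the IDR-thresholded list of each library. The carnitine/acylcarnitine carrier Slc25a20, which admits fatty acids for oxidation, had 10.3 in replicate 1 and 8.74 in replicate 2.

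Among carriers of amino acids 6 of 8 promoters were accessible. The aspartate/glutamate carriers of the malate-aspartate shuttle were both among the accessible ones, Slc25a12 with 11.4 in replicate 1 and 11.2 in replicate 2 and Slc25a13 with 9.21 and 10.3. Slc25a29, a carrier of basic amino acids, had 9.74 and 10.4. Slc25a44, the branched-chain amino acid carrier, had 8.21 and 8.76. The ornithine carrier Slc25a15 of the urea cycle had 5.50 and 7.04, and the glutamate carrier Slc25a22 had 5.01 and 5.89. The second genes of these last pairs were not accessible. Slc25a2, the other ornithine carrier, had only a pseudoreplicated region in replicate 2, with a fold of 3.68, and Slc25a18, the other glutamate carrier, had none in either library.

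The uncoupling-protein-like carriers, named for their resemblance to the proton carrier of brown fat, had 3 of 3 promoters accessible. Slc25a27 had 17.3 in replicate 1 and 14.6 in replicate 2, the highest of the family in both. It stood at percentile 99.9 and 98.3 of all promoters in the IDR-thresholded list of each library. Its region at chr17:43666810-43667411 lies within 1 kb of the start site of Cyp39a1 as well, so the 2 promoters cannot be told apart. Other members, among them Slc25a32 (with Dcaf13), also have another gene's start site within 1 kb and are named with the CpG values below. Slc25a14 had 11.2 and 13.0, and Slc25a30 had 9.97 and 12.0. Among the other or little studied members 3 of 8 were accessible. Slc25a53 had 11 in replicate 1 and 11.8 in replicate 2, Slc25a46, an outer membrane protein of mitochondrial shape, had 9.44 and 11.1, and Slc25a35 had 7.41 and 9.95. Slc25a34, Slc25a43, Slc25a47 and Slc25a48 had no promoter region in either library. Slc25a45 had pseudoreplicated regions of 4.35 and 4.86 and a conservative region of 4.81, and was the only member found in a pooled list without an IDR-thresholded region.

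Promoter folds of the 2 libraries followed each other. Across the 37 accessible Slc25a promoters Pearson's r was 0.911 and Spearman's rho 0.877, against 0.922 and 0.919 across all 9988 accessible promoters. These correlations are across genes of the same 2 libraries, and genes of 1 library share its depth and processing, so they are not independent replicates. The median ratio of replicate 2 to replicate 1 was 1.04 for Slc25a genes and 1.05 for all genes. The ratio ran between 0.846 for Slc25a27 and 1.34 for Slc25a35. The fold was higher in replicate 2 for 22 of 37 Slc25a genes (59.5%), against 66.7% of all accessible promoters. Of the haem and iron carriers, Slc25a37 was higher in replicate 2 and the other 2 were lower.

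**Figure D2:**
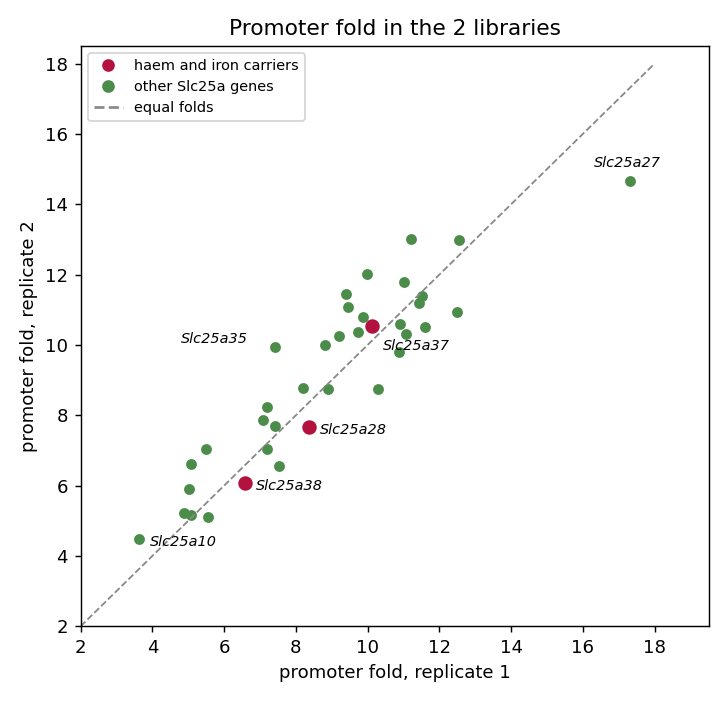
Promoter fold in replicate 1 (x axis) and replicate 2 (y axis), both the authors' fold over local background without scaling between libraries, with a point for each of the 37 Slc25a genes with an accessible promoter. Red points are the haem and iron carriers, green points the other genes, and the dashed line marks equal folds. Slc25a27 lies lowest against the line (ratio 0.846) and Slc25a35 highest (1.34).

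The 10 promoters that were not accessible were mostly poorer in CpG than the accessible ones. Observed over expected CpG within 500 bp of the start site had a median of 0.349 in these 10, with a range of 0.207 to 0.753, and of 0.720 in the 37 accessible ones. Over all genes the medians were 0.243 without and 0.740 with an accessible promoter, a difference in the same direction. Slc25a31 (0.753) and Slc25a48 (0.616) were the inaccessible members with CpG-rich promoters. The haem and iron carriers had a median of 0.861. The start site of another gene lay within 1 kb for 8 of 47 Slc25a genes (17.0%), against 12.9% of all genes. For the haem and iron carriers the count was 0 of 3. All 8 had an accessible promoter, and they made up 21.6% of the 37, against 23.0% of all accessible promoters. They were Slc25a11, Slc25a23, Slc25a25, Slc25a27, Slc25a32, Slc25a40, Slc25a46 and Slc25a53. Their promoter folds may therefore belong in part to the other gene.

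Words of promoter-binding factors were counted in the accessible Slc25a promoters and in all accessible promoters, in the window from 250 bases before to 50 after the start site. The SP word GGGCGG was in 26 of 37 Slc25a promoters (70.3%), against 64.5% of the 9978 accessible promoters in which the same start site was overlapped in both libraries. The ETS word CCGGAAG was in 8 (21.6%), against 19.99%, YY1 in 2 (5.41%), against 5.00%, and CREB in 2 (5.41%), against 3.97%. The word of NRF1, a factor known for nuclear genes of mitochondria, was in 0 of 37, against 2.23%. The remaining words were added after the data were seen. GATA words were in 8 (21.6%), against 18.8%, KLF words in 27 (73.0%), against 67.5%, and the CTCF word in 1 (2.70%), that of Slc25a38 printed above, against 0.571%. KLF words can contain the SP word, so these 2 counts overlap.

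Distal regions were more numerous around the haem and iron carriers than around the other Slc25a genes on average. A distal region is one of the conservative list whose summit is more than 1 kb from every protein-coding start site and within 50 kb of the most upstream start site of the gene. The haem and iron carriers had a mean of 6 such regions (SD 2 over the 3 genes), the other Slc25a genes 3.27 (SD 2.20) and all protein-coding genes 2.37 (SD 2.30). These SDs are over genes and not over libraries. In the IDR-thresholded lists the haem and iron carriers had a mean of 3 in replicate 1 and 4 in replicate 2, the other Slc25a genes 1.48 and 1.64, and all genes 1.14 and 1.26. The order was the same in both libraries, and the 3 genes overlapped the range of the other 44, which ran between 0 and 9.

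Slc25a37 had 8 distal regions (5 in replicate 1 and 6 in replicate 2), Slc25a38 had 6 (2 and 4) and Slc25a28 had 4 (2 and 2). Of the 44 other Slc25a genes, 3 had at least as many as Slc25a37, 7 at least as many as Slc25a38 and 16 at least as many as Slc25a28. The numbers differed by library for Slc25a38, with 17 in replicate 1 and 4 in replicate 2. They were 2 and 1 for Slc25a37, and 17 and 22 for Slc25a28. Among all genes 3.15% had 8 or more, 10.5% had 6 or more and 27.7% had 4 or more. Slc25a37 thus stood highest of the 3 in the conservative list and in each library, and Slc25a28 and Slc25a38 were level in replicate 1.

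**Figure D3:**
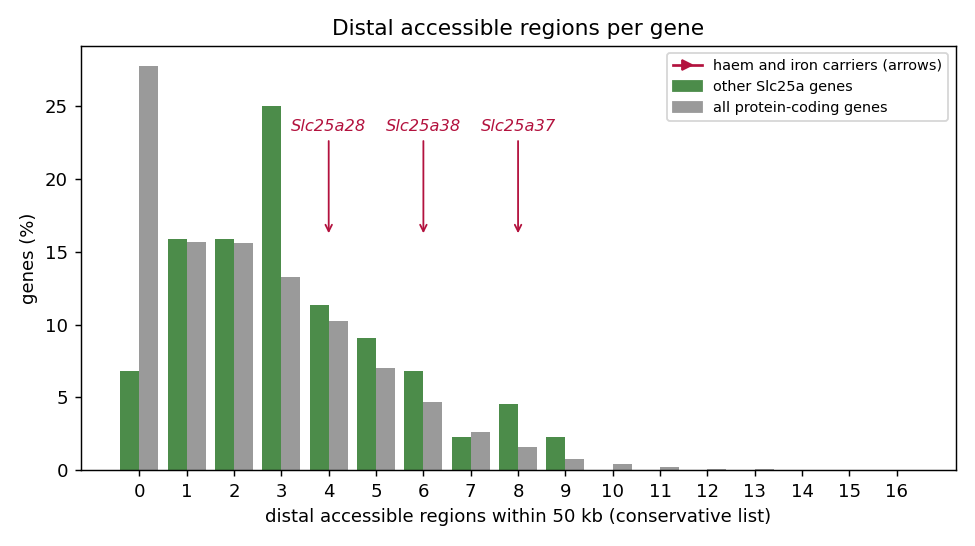
Share of genes (y axis, percent) with each number of distal accessible regions within 50 kb in the conservative list (x axis), for the 44 other Slc25a genes in green and all 21853 protein-coding genes in grey. Red arrows mark the haem and iron carriers at 4 (Slc25a28), 6 (Slc25a38) and 8 (Slc25a37) regions. The green bars peak at 3 regions and the grey bars at 0.

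Across the family 44 of 47 Slc25a genes had at least 1 distal region (93.6%), against 72.2% of all genes. Slc25a14, Slc25a40 and Slc25a48 had none. Among genes with an accessible promoter the shares were closer, 94.6% of Slc25a genes and 89.2% of all genes. Among genes without one in either library they were 90% and 55.7%. The mean over the 47 was 3.45 and the median 3, against 2.37 and 2 for all genes. Genes with an accessible promoter had more distal regions in general. Slc25a genes with one had a mean of 3.59, against 3.06 for all such genes, and the 10 Slc25a genes without one had 2.90, against 1.69. Slc25a44 had the most with 9, followed by Slc25a30, Slc25a25 and Slc25a37 with 8 each. Slc25a21 had 7, and Slc25a38, Slc25a42, Slc25a23 and Slc25a45 had 6 each. Counts in single libraries were lower. Slc25a44 had 6 in replicate 1 and 5 in replicate 2, Slc25a30 had 5 and 7, and Slc25a25 had 4 and 1. Slc25a21 had 4 and 4, Slc25a42 had 3 and 3, Slc25a45 had 3 and 2, and Slc25a23 had 1 and 2. Against these, Slc25a37 stood level with Slc25a30 and below Slc25a44 in replicate 1, and below Slc25a30 alone in replicate 2.

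A distal region can fall within 50 kb of several genes, and the distance does not show which gene it acts on. The 162 pairs of Slc25a gene and region held 153 regions, of which 9 counted for 2 Slc25a genes that lie close together. Of these, 4 were shared by Slc25a23 and Slc25a41, 2 by Slc25a5 and Slc25a43, 2 by Slc25a29 and Slc25a47, and 1 by Slc25a24 and Slc25a54. The haem and iron carriers shared none. Their nearest start site was that of the carrier itself for 10 of 18 regions (55.6%), against 61 of 135 (45.2%) for the other Slc25a genes. Of the 18, 6 were intronic and 12 intergenic, and of the 135, 75 were intronic, 51 intergenic and 9 in exons. The number of other genes with a start site within 50 kb had a median of 1 for the haem and iron carriers, 2 for the other Slc25a genes and 2 for all genes.

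The strongest distal region of the haem and iron carriers lay upstream of Slc25a37. At chr14:69304482-69305660, 19.8 kb before the start site, it had a fold of 11.5 in replicate 1 and 11.7 in replicate 2, above the promoter in both. It is intergenic, and the nearest start site is that of Synb, which encodes a syncytin, a cell fusion protein. Inside Slc25a37, an intronic region at +17.4 kb (chr14:69267231-69268063) had 8.31 in replicate 1 and 10.8 in replicate 2. An intronic region at +8.6 kb had 5.75 and 6.98. Both lie within the gene and recurred in the IDR-thresholded lists of both libraries. Upstream regions at -33.4 kb had 7.11 in replicate 1 and 8.54 in replicate 2 and at -36.9 kb had 7.19 and 6.78, both nearest to the start site of Entpd4. Past the gene, a region at +46.7 kb had 5.39 and 6.11. The 2 weakest were in the lists of replicate 2 only, with 5.21 at +43.4 kb and 3.34 at +8.2 kb. In all, 5 regions of Slc25a37 were in both IDR-thresholded lists, and the folds here and below are those of the pseudoreplicated lists, which are the same wherever a region is in both kinds of list.

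Slc25a38 had weaker distal regions than Slc25a37 at its strongest. A region in an intron of the neighbouring gene Mobp at +47.9 kb had 6.86 in replicate 1 and 6.95 in replicate 2. An intergenic one at +30.5 kb had 6.39 and 7.84. Both stood above the Slc25a38 promoter in the second library, and the one at +47.9 kb in both. The intronic regions of Slc25a38 at +2.3 and +6.1 kb, had 2.95 and 3.82 in replicate 1 and 3.38 and 4.41 in replicate 2. Upstream regions had 5.30 in replicate 1 and 5.78 in replicate 2 at -11.5 kb, nearest to Ccr8, and 4.95 and 6.03 at -37 kb, nearest to Cx3cr1. Both of those genes encode chemokine receptors.

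Slc25a28 had no distal region inside the gene. The strongest, at +43.8 kb (chr19:43630623-43631345) and nearest to Nkx2-3, a homeobox gene, had 9.34 in replicate 1 and 10.1 in replicate 2. It was the only one of the 4 in both IDR-thresholded lists. The regions at +18.9 kb had 6.19 in replicate 1 and 6.05 in replicate 2, at +13.9 kb 4.29 and 5.77, and at -6.8 kb 4.28 and 4.80.

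**Figure D4:**
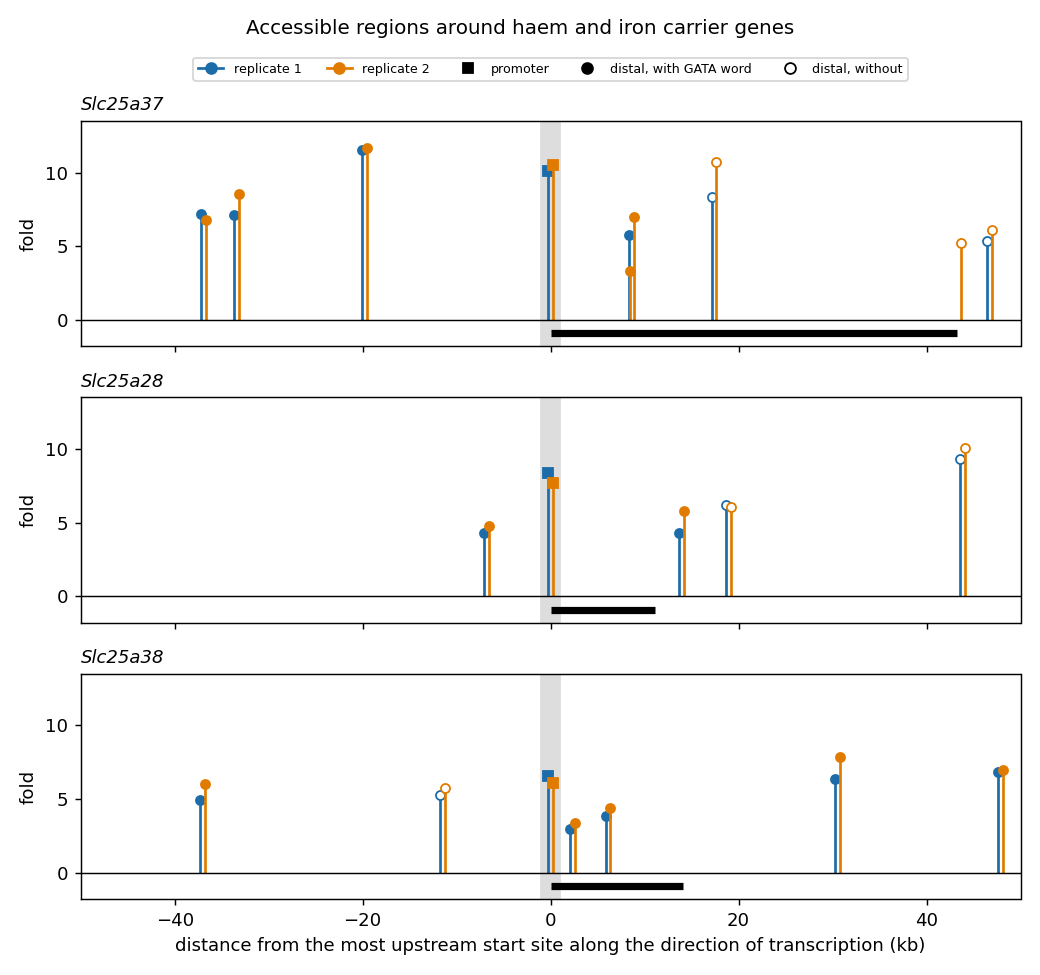
Accessible regions within 50 kb of the most upstream start site of each haem and iron carrier, with distance along the direction of transcription in kb (x axis) and the authors' fold over local background (y axis) in replicate 1 (blue) and replicate 2 (orange). Squares are promoters, circles distal regions of the conservative list, filled where a GATA word lies within 100 bases of the summit, and black bars are the gene bodies. The region at -19.8 kb of Slc25a37 stands highest, with 11.5 and 11.7.

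Recurrence of distal regions in both libraries was counted for the haem and iron carriers, the other Slc25a genes and all genes together. All these regions are from the conservative list, which already asks for repetition between the libraries. High shares in both pseudoreplicated lists therefore follow largely from that choice. Of the 18 around haem and iron carriers 8 (44.4%) were in both IDR-thresholded lists, against 42 of 135 (31.1%) around other Slc25a genes and 39.0% of all 33378 distal regions. By gene these were 5 of 8 for Slc25a37 (62.5%), 2 of 6 for Slc25a38 (33.3%) and 1 of 4 for Slc25a28 (25%), so Slc25a37 alone stood above the share of all distal regions. In both pseudoreplicated lists the shares were 16 of 18 (88.9%), 121 of 135 (89.6%) and 91.0%. The median pooled fold was 6.36, 5.95 and 6.34 in the same 3 sets. The strongest distal regions of the other Slc25a genes had values like the top one of Slc25a37. A region 28.3 kb upstream of Slc25a35 had 11.3 in replicate 1 and 13.8 in replicate 2. One 12.3 kb downstream of the start of Slc25a5 had 11.5 and 10.96. One 46.7 kb upstream of Slc25a21, in an intron of Mipol1, had 8.08 and 12.4. Of the glutathione carriers, Slc25a39 had 3 distal regions, nearest to or inside other genes of blood cells. One in an intron of Slc4a1, the anion exchanger of the red cell membrane, had 6.97 in replicate 1 and 8.51 in replicate 2, and one nearest to the start site of Slc4a1 had 8.31 and 10.4. One in an intron of Itga2b, the platelet integrin subunit, had 5.88 and 6.50.

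GATA words were in most distal windows, around members and elsewhere. GATA factors and KLF1 are among the main regulators of red cell genes. GATA words were in 12 of 18 windows of haem and iron carriers (66.7%), 80 of 135 of the other Slc25a genes (59.3%) and 53.7% of all 33378. By gene the counts were 5 of 8 for Slc25a37, 5 of 6 for Slc25a38 and 2 of 4 for Slc25a28. KLF words were in 9 of 18 (50%), 32 of 135 (23.7%) and 25.6% of all. By gene these were 4 of 8, 3 of 6 and 2 of 4. The 18 windows are few and come from 3 loci, so the shares are a description of those loci.

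The other words searched were ETS (AGGAAG), RUNX (TGTGGT), NFE2/AP-1 (TGANTCA) and CTCF, the last added after the data were seen. ETS was in 7 of 18 windows (38.9%), 44 of 135 (32.6%) and 27.02% of all. RUNX was in 2 (11.1%), 28 (20.7%) and 21.4%. NFE2/AP-1 was in 3 (16.7%), 10 (7.41%) and 7.25%. Both RUNX counts stood below or near the share of all windows, and ETS and NFE2/AP-1 above it or near it. CTCF was in 2 (11.1%), 7 (5.19%) and 4.57%, and the 2 were a window of Slc25a38 and the +43.8 kb window of Slc25a28 printed above.

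**Figure D5:**
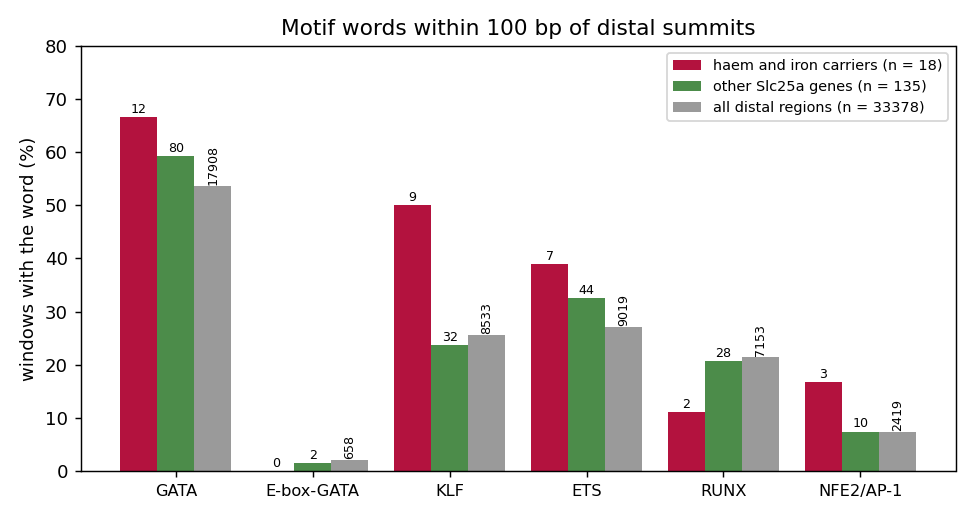
Share of windows reaching 100 bases to either side of distal summits (y axis, percent) that hold each word (x axis), for the haem and iron carriers (red, 18 windows), the other Slc25a genes (green, 135 windows) and all distal regions (grey, 33378 windows), with the number of windows above each bar. The red bar stands above the other 2 for GATA, KLF, ETS and NFE2/AP-1. It stands below them for RUNX and for E-box-GATA, a word described below.

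The E-box-GATA word, CANNTG followed after 6 to 9 bases by AGATAA, is the arrangement bound by the TAL1 and GATA1 complex in red cell genes. It was in 0 of 18 windows of haem and iron carriers and 2 of 135 of the other Slc25a genes (1.48%), against 1.97% of all. One of the 2 was 37.7 kb downstream of the start of Slc25a30, in an intron of Cog3 (window chr14:75749228-75749428), with a fold of 7.72 in replicate 1 and 9.34 in replicate 2. It is printed because it is the one example of this arrangement outside an exon, on the plus strand, with the whole word in capitals.
Slc25a30 +37.7 kb: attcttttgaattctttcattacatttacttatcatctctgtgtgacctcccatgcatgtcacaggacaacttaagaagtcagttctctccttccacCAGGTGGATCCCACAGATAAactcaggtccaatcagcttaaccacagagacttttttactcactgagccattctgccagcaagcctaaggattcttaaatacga

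Relatives of the family under other symbols, and genes that act with the haem and iron carriers, were read in the same way. Of 5 relatives 3 had an accessible promoter. These were Ucp2, with 4.93 in replicate 1 and 5.78 in replicate 2, Mtch1 with 10.9 and 12.0, and Mtch2 with 7.59 and 8.67. Ucp1, the proton carrier of brown fat, and Ucp3 were not accessible. Of 24 genes of mitochondrial haem synthesis and iron supply 20 (83.3%) were accessible in both libraries, against 45.7% of all genes, and 22 were in both pseudoreplicated lists. The 20 included Fech, which inserts iron into the ring (5.70 and 6.10) and Tfrc, the transferrin receptor (10.4 and 10.97). Alas2, the red cell enzyme of the first step of haem synthesis, and Alad, the second enzyme, had no promoter region in either library. Alas1, the housekeeping enzyme of that step, had 3.93 and 4.71 in the pseudoreplicated lists alone. Abcb10, which binds mitoferrin-1 in mouse red cell precursors, had 3.57 and 3.67 there. Around Alas2 there were 3 distal regions, of which 2 lay within the gene. The highest pooled fold there was 17.96, against 13.8 for the highest around an Slc25a gene. The mean number of distal regions was 4.42 (SD 3.20 over genes) around the 24 genes and 4.2 (SD 0.837) around the 5 relatives. Both means lay between those of the haem and iron carriers (6) and the other Slc25a genes (3.27).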

How the data were processed

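Peak lists of 2 ATAC-seq libraries of MEP were deposited on mm10 (GRCm38), per the file headers. No aligner, peak caller or treatment of the transposase offset is named in the files and labels, and each is not given in the sources used here. The deposited ratio column is taken as the authors' fold of a peak over its local background, from its place and values, with no scaling of 1 library to the other. Only to choose the strongest peak of a merged region did the deposited −log10 p column serve, as it grows with depth. Merged regions on the 21 main chromosomes were set beside GENCODE M21 (21853 protein-coding genes, 54361 start sites). An accessible promoter needed, in the IDR-thresholded list of each library, a region reaching into any start site ± 1 kb by at least 1 bp. Sequence was read from GRCm38. With 1 group of 2 libraries there is no test and no p-value. Scripts were tested on simulated data (Python 3.11.15, numpy 2.4.6, scipy 1.17.1, pysam 0.24.0). Genes with values named one by one were the haem and iron carriers, the 8 highest promoters, every inaccessible member, the 8 members with most distal regions and any found in pooled lists only, and the rest were added after their values were seen. The genes, lists and words were chosen with earlier results of these data known. Values of 1 member and 1 partner gene and the sequence of 1 promoter are not reported here, while counts include them.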

Additional observations from a re-analysis of the deposited data

How the results depend on the processing

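The count of accessible promoters stayed within 1.5 times of the 37 of 47 under the pseudoreplicated or conservative lists, windows of 500 bp or 2 kb, the most upstream start site alone, an overlap of 100 bp, and either library alone. With the upper 50% of regions by fold, 23 Slc25a promoters were accessible, 1 of the haem and iron carriers and 22 of the others, against 27.7% of all genes. Mean distal regions moved more, and the haem and iron carriers stood above the other Slc25a genes under every alternative run. The means over all Slc25a genes, haem and iron carriers, and others were 3.19, 5.33 and 3.05 with the pooled IDR-thresholded list, 6.02, 10 and 5.75 with the replicated list, 1.19, 2.67 and 1.09 with the upper 50% by fold, 1.64, 3.33 and 1.52 within 25 kb, 6.96, 8.67 and 6.84 within 100 kb, and 1.51, 3.33 and 1.39 when a region counted for its nearest start site alone. Without replicate 1 or replicate 2 they ran between 1.57 and 1.79, 3 and 4, and 1.48 and 1.64. These lists and windows hold fewer or more regions by construction. No paired analysis was possible because there is 1 group. Depth is unknown, so an absent region may lie below what these libraries could show.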
